A study of Mus musculus with 12 samples.

Results

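Insulin signalling genes and tribbles genes were followed in the livers of male mice with and without an obese female ancestor. The 10 genes were Irs1, Irs2, Pik3r1, Pdpk1, Akt2, Foxo1, Gsk3b, Tsc2, Trib1 and Trib3, taken by symbol from the annotation of the array, which gave 30142 genes a probe set with a single symbol. Each of the 10 had 1 such probe set, and all 10 passed the filter on dim genes, a mean over the 12 arrays above 4.55 (log2). Liver RNA of C57BL/6 males aged 12 weeks had been hybridised to 12 whole-transcript arrays, 4 per group. Controls had lean parents. The MatOb F2 and MatOb F3 groups descend from obese Avy/a females, as grandsons and great-grandsons in the series text, while the sample labels call them F2 or F3 sons. Avy, viable yellow, is an agouti allele that can cause obesity, and the labels give it for the ancestors and not for the 12 males measured. Strain, age, sex and tissue were the same in all 3 groups, and the labels do not give the generation of each control male. Whether each replicate is its own animal is not stated, and the p-values therefore rest on a spread between arrays that may be partly technical.

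Insulin binds its receptor, which phosphorylates the adaptor proteins IRS1 and IRS2. These recruit the lipid kinase PI3K through its regulatory subunit, encoded by Pik3r1, and the lipid it makes brings the kinases PDPK1 and AKT2 together at the membrane. In hepatocytes AKT2 then phosphorylates FOXO1, which leaves the nucleus and stops driving gluconeogenic genes, GSK3B, which releases glycogen synthase, and TSC2, which releases mTOR. Tribbles proteins are pseudokinases. TRIB1 brings the transcription factor C/EBP alpha to the ubiquitin ligase COP1, and TRIB3 binds AKT and is induced under stress by the transcription factors ATF4 and CHOP. Most of this signalling runs through phosphorylation, which arrays do not measure.

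The arrays were close in median, 4.49 to 4.60, while their negative control medians ran from 4.04 (control replicate 3) to 4.40 (control replicate 2). They differed in the mean level of 337 small nucleolar RNAs, which split them at the widest gap into a higher set of 7 arrays (control replicates 2 and 4, F2 replicates 1 and 4, F3 replicates 1, 2 and 3) and a lower set of 5. No label names this split. Differences computed within each set stand beside several of the results, and F3 has 1 array in the lower set. The mean of 7 measured hepatocyte markers lay between 12.17 and 12.32 in every array. The mean of 4 adipocyte markers, at 4.26 to 4.55, lay close to the median of the negative control probe sets, 4.24. In bulk liver, fewer cells of a type and less RNA per cell cannot be told apart.

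No insulin signalling or tribbles gene passed the test in any comparison. All 12 arrays were fitted with limma, with Benjamini-Hochberg adjustment over 18725 genes, and 0 of the 10 genes passed an adjusted p of 0.05 in F2 against control, F3 against control or F3 against F2 (adjusted p at least 0.9998). Over all genes the count was also 0 in each comparison. An unadjusted limma p under 0.05 was reached by 0 of the 10 in F2 (0.919% of all genes), 0 of the 10 in F3 (2.93%), and 1 of the 10, Trib1, between F3 and F2 (2.37%). For none of the 10 did the arrays of 2 groups lie apart, which happened for 0.705%, 1.63% and 2.46% of all genes.

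**Figure D1:**
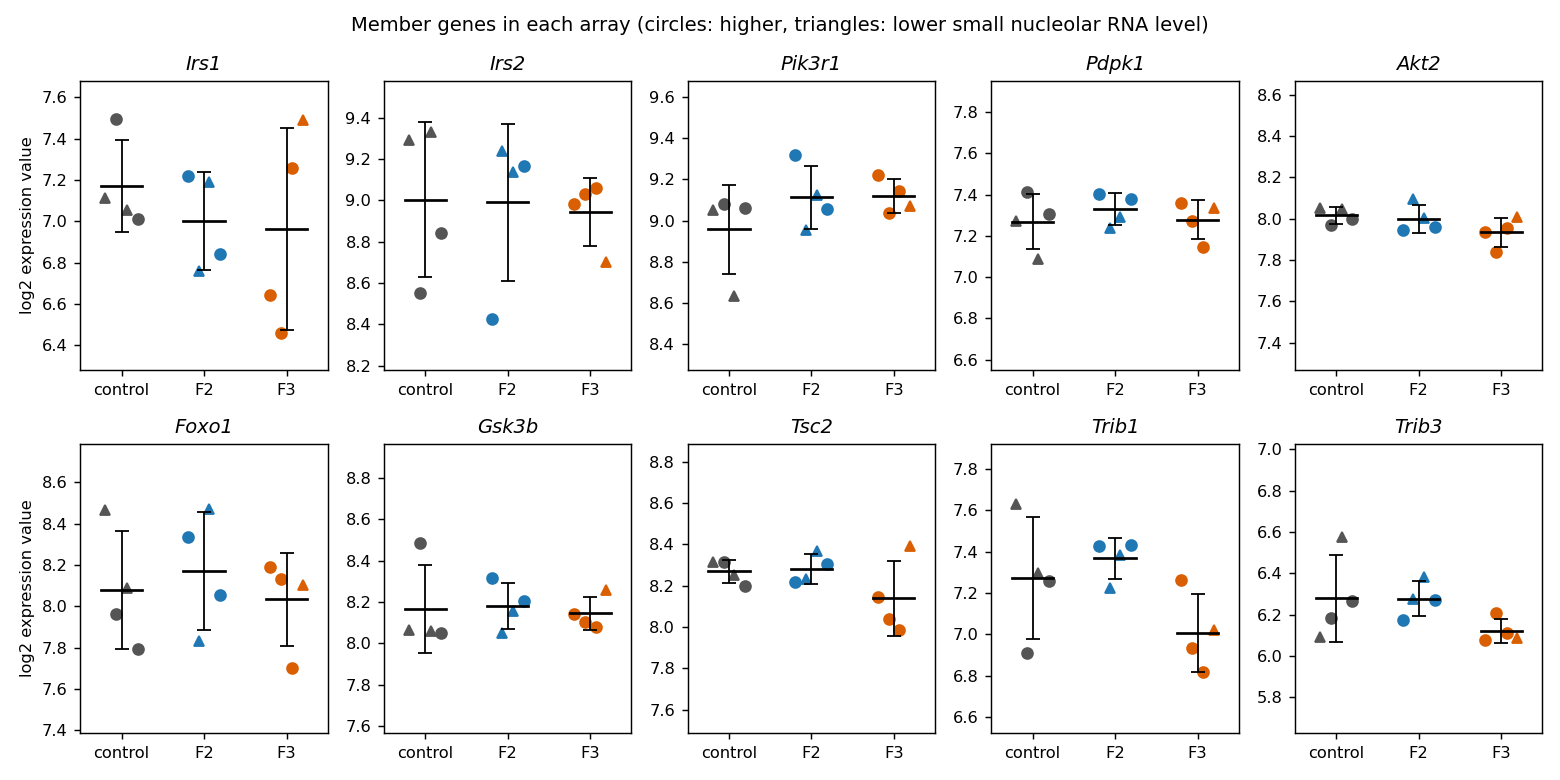
The log2 expression value of each gene in every array, by group, with the group mean and SD (n = 4) as bars. All panels span the same height on the log2 axis, circles and triangles mark arrays of the higher and lower small nucleolar RNA set, and in each panel the groups overlap. Trib1 in F3 (6.82 to 7.26) lies lowest relative to its other groups.

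The intervals were narrow for most of the genes. The 95% interval lay inside 1.5-fold both ways for 9 of the 10 genes in F2 against control, for 9 in F3 against control and for 9 in F3 against F2. The exceptions were Irs1 in the first 2 comparisons and Trib1 in the third. Against control, 4 of the 10 genes lay lower in F2 and 6 higher (median difference 0.01, with 56.7% of all genes lower and 43.3% higher), and 8 of the 10 in F3 (median −0.07, with 54.7% of all genes lower). Between F3 and F2, 9 of the 10 lay lower in F3 and 1 higher (median −0.06, with 48.6% of all genes lower and 51.4% higher). Leaving out each array in turn gave 6 to 9 lower genes for F3 against control and 7 to 10 for F3 against F2. Within the lower set, where F3 has 1 array, both counts were 5.

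**Figure D2:**
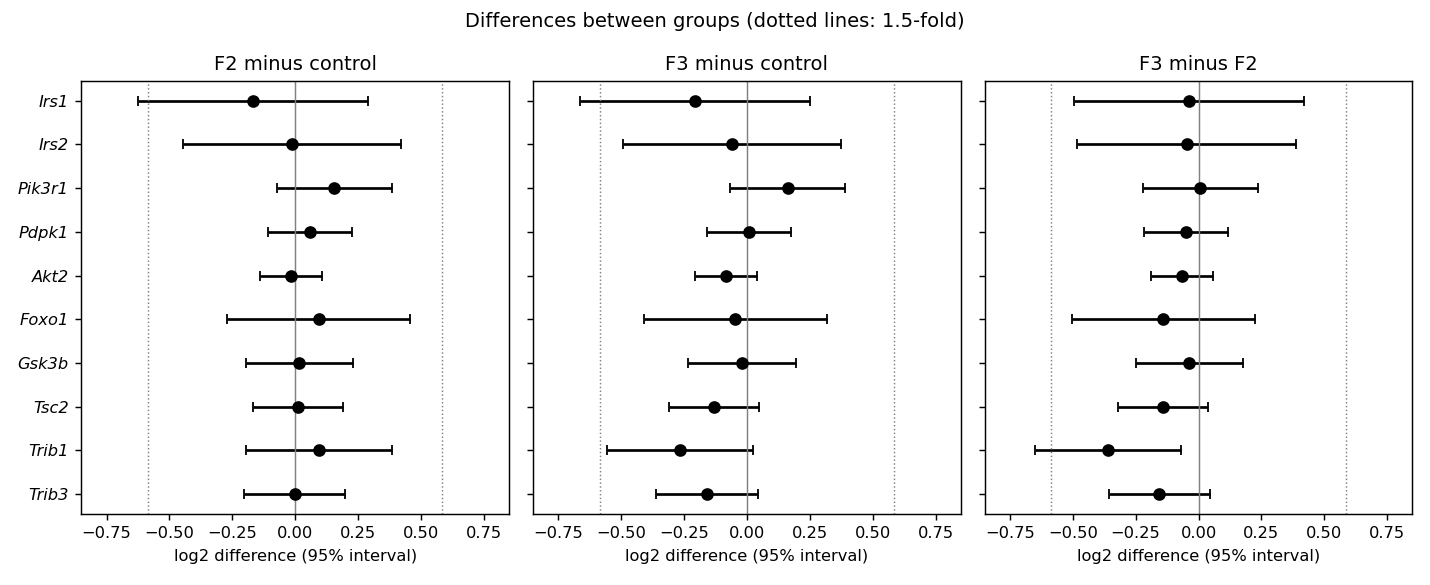
Log2 differences between groups with 95% intervals from limma for the 10 genes in the 3 comparisons, with dotted lines at 1.5-fold. The interval for Trib1 between F3 and F2, −0.65 to −0.07, is the 1 interval of 30 that does not contain 0, and it did not pass after adjustment.

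The adaptor genes Irs1 and Irs2 were the most variable of the 10 and did not separate the groups. Irs2, the IRS gene whose transcription is known to be raised by FOXO1 in fasting and repressed by insulin, read 9.29, 8.55, 9.33 and 8.84 in control replicates 1 to 4. It read 8.42, 9.24, 9.14 and 9.16 in the F2 arrays and 8.98, 9.03, 9.06 and 8.70 in the F3 arrays. The lowest arrays were control replicate 2, F2 replicate 1 and F3 replicate 4, 1 in each group. The group means were 9.004 ± 0.376, 8.991 ± 0.381 and 8.945 ± 0.163 (SD, n = 4). The limma difference was −0.01 for F2 (95% interval −0.45 to 0.42) and −0.06 for F3 (−0.49 to 0.38), and both turned positive without control replicate 1 or 3. Within the higher array set the F3 difference was 0.33, and −0.61 on the lower side, where F3 has 1 array.

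Irs1, the adaptor that shares this role in the liver, read 7.11, 7.50, 7.06 and 7.01 in controls. The F2 arrays read 7.22, 6.76, 7.19 and 6.84. In F3 the arrays lay in pairs, 6.64 and 6.46 in replicates 1 and 2, below every control, and 7.26 and 7.49 in replicates 3 and 4. The SD in F3 was thus 0.49, against 0.22 in controls and 0.24 in F2 (n = 4 each). The mean of Irs1 over all arrays, 7.045, lay just under 7.05, the 95th percentile of the negative control probe sets. F3 replicates 1 and 2 were among the arrays below that level. Irs1 differed by −0.17 in F2 (95% interval −0.62 to 0.29) and −0.21 in F3 (−0.66 to 0.25), and both intervals are wide. Without control replicate 2 the differences were −0.0583 and −0.0967. The F3 difference ranged from −0.38 without F3 replicate 4 to −0.0384 without F3 replicate 2, and was −0.47 within the higher set and 0.41 within the lower.

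The promoters of Irs1 and Irs2 are shown because both hold the same pair of short motifs next to each other. One is the E-box CACGTG, known in the Irs2 promoter as a binding site of TFE3. The other is TGTTTTG, the core of the insulin response element at which FOXO1 acts, best known from Igfbp1, an insulin-repressed gene for a secreted binding protein of insulin-like growth factors. Capitals mark these motifs on either strand in RefSeq promoter sequence of the build GRCm38.p6, read 5′ to 3′ on the strand of the gene. The Irs1 stretch is chr1:82291532-82291571 on the minus strand, 132 to 93 bases before the annotated start.
Irs1: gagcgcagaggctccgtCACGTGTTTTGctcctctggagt
Irs2: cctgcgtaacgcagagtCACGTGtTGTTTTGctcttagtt
Igfbp1: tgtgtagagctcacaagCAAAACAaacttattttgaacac
The Irs2 stretch is chr8:11008951-11008990 on the minus strand, 61 to 22 bases before the start, and the Igfbp1 stretch is chr11:7197662-7197701 on the plus strand, 125 to 86 bases before it.

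In Irs1 the 2 motifs overlap by 2 bases, and in Irs2 1 base lies between them. Both strands were searched in 32851 windows of 300 bases (250 before a start and 50 after). CACGTG was in 7.15% of windows, TGTTTTG or its complement CAAAACA in 6.28%, and TGTTTTG starting 4 to 10 bases after the first base of CACGTG, on either strand, in 9 windows (0.0274%). Windows were found for 9 of the 10 genes, all but Trib1, and of these 9 Irs1 and Irs2 were the ones that held CACGTG and the ones that held TGTTTTG. The forkhead motif TGTTTAC or its complement GTAAACA, searched as well, was in 3.65% of windows and in 0 of the 9 genes. The spacing was chosen after both sequences had been read, so its share is a description. A match is a run of letters and not a measured binding site, and the arrays carry no binding data. Irs1 and Irs2 were not positively correlated across the arrays (Pearson r = −0.47, permutation p = 0.119, and Spearman rho = −0.39, permutation p = 0.209, n = 12, adjusted p = 0.393 and 0.494 over 45 pairs).

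The kinase branch below the adaptors was steadier. Akt2, the main AKT gene of insulin action in hepatocytes, read 8.05, 7.97, 8.05 and 8.0 in controls, 7.94, 8.09, 8.002 and 7.96 in F2, and 7.94, 7.84, 7.95 and 8.01 in F3. Its arrays lay apart by small nucleolar RNA set, though barely. The 5 arrays of the lower set read 8.002 to 8.095 and the 7 of the higher set 7.838 to 8.0. The share of all genes whose array sets lie apart in this way was not computed. In F3, 3 of 4 arrays lay below every control, and the limma difference was −0.08 (95% interval −0.21 to 0.04). With the array set as a block it was −0.06.

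Pik3r1, the regulatory subunit of PI3K, read 9.05, 9.08, 8.64 and 9.06 in controls. Control replicate 3 was the lowest of all 12 arrays. The F2 arrays read 9.32, 8.96, 9.12 and 9.05 and the F3 arrays 9.22, 9.04, 9.14 and 9.07. Pik3r1 lay above control by 0.16 in F2 (95% interval −0.07 to 0.38) and by 0.16 in F3 (−0.07 to 0.39), and without control replicate 3 these were 0.0486 and 0.0545. Pdpk1, the kinase that activates AKT, ranged from 7.09 to 7.41 over all arrays, and its differences were 0.06 in F2 (−0.11 to 0.23) and 0.01 in F3 (−0.16 to 0.18). Within the higher set the F3 difference of Pdpk1 was −0.10 and within the lower set 0.16.

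Of the 3 AKT targets, Tsc2 was lower in most F3 arrays, and Foxo1 and Gsk3b had small differences whose sign depended on the arrays compared. Tsc2, the inhibitor of mTOR signalling, read 8.32, 8.31, 8.25 and 8.20 in controls and 8.22, 8.23, 8.37 and 8.30 in F2. The F3 arrays read 8.14, 8.04, 7.98 and 8.39, so 3 of 4 lay below every control and every F2 array and the fourth above all of them. The limma difference of F3 was −0.13 from control (95% interval −0.31 to 0.05) and −0.14 from F2 (−0.32 to 0.04). Without F3 replicate 4, the 1 F3 array of the lower set, these were −0.22 (limma adjusted p = 0.9976) and −0.23 (adjusted p = 1.0). Within the higher set they were −0.20 and −0.21, and within the lower set 0.11 and 0.09.

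Foxo1, the forkhead factor that insulin excludes from the nucleus, ranged widely within each group: 7.79 to 8.47 in controls, 7.83 to 8.47 in F2 and 7.70 to 8.19 in F3. Its limma difference was 0.09 in F2 (95% interval −0.27 to 0.46) and −0.05 in F3 (−0.41 to 0.32). Within the higher set the F2 and F3 differences were 0.31 and 0.13, and within the lower set −0.13 and −0.18. Without control replicate 1, the highest control, they were 0.22 and 0.0834. Gsk3b, the glycogen synthase kinase, read 8.07, 8.48, 8.06 and 8.05 in controls. The F2 arrays read 8.32, 8.05, 8.16 and 8.20 and the F3 arrays 8.14, 8.10, 8.08 and 8.26. Control replicate 2 was thus the highest of all 12 arrays. The differences were 0.02 in F2 (−0.20 to 0.23) and −0.02 in F3 (−0.23 to 0.19), and without control replicate 2 they were 0.12 and 0.087. Within the higher set the F3 difference was −0.16 and within the lower set 0.19.

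Trib1 had the lowest unadjusted p of the 10 genes, between F3 and F2. It read 7.63, 6.91, 7.30 and 7.26 in controls, 7.43, 7.22, 7.39 and 7.43 in F2, and 7.26, 6.93, 6.82 and 7.02 in F3. The F2 arrays were close together and 3 of the 4 F3 arrays lay below all of them, while the controls, from 6.91 to 7.63, overlapped both. F3 replicate 3 lay below every control. The means were 7.27 ± 0.29, 7.37 ± 0.10 and 7.01 ± 0.19 (SD, n = 4). Between F3 and F2 the limma difference was −0.36 (95% interval −0.65 to −0.07, unadjusted p = 0.0194, adjusted p = 0.9999), and an exact permutation test of the 4 against 4 arrays, 2-sided, gave p = 0.0571, where 0.0286 is the smallest possible. It ranged from −0.44 to −0.30 over arrays left out in turn, was −0.43 within the higher set and −0.29 within the lower. Against control the F3 difference was −0.27 (−0.56 to 0.02), with −0.39 without control replicate 2 and −0.15 without control replicate 1. It was −0.08 within the higher set and −0.44 within the lower, where the F2 difference from control was 0.35 and −0.16. The mean of 8 markers of Kupffer cells and macrophages, cells that also express Trib1, was 7.57 to 7.84 in controls, 7.46 to 8.25 in F2 and 7.26 to 7.92 in F3. Of the 8, 6 lay lower in F3 than in F2, beside 48.6% of all genes, and none of them passed. The marker mean was highest in control replicate 1, which had the highest Trib1 of the controls. In F2 and F3 it was highest in replicates 2 and 3, which had the lowest Trib1 of their groups. The part of these cells in the Trib1 values was not tested.

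Trib3 read 6.09, 6.18, 6.58 and 6.27 in controls and 6.18, 6.28, 6.38 and 6.27 in F2. The F3 arrays lay close together at 6.08, 6.21, 6.11 and 6.09, and 3 of the 4 were below every F2 array. The limma difference of F3 was −0.16 from control (95% interval −0.36 to 0.04) and −0.16 from F2 (−0.36 to 0.05, exact permutation p = 0.0571, 2-sided). Without control replicate 3, the highest array, the difference from control was −0.06, and it was −0.09 within the higher set and −0.25 within the lower. Trib3 was the dimmest of the 10 relative to background, with 88.2% of the negative control probe sets below its mean, against 94.9% or more for the other 9.

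The start of Trib3 is shown with that of Asns, the asparagine synthetase gene, because both hold a match to the composite C/EBP-ATF element through which ATF4 acts. The element was searched as TTNCATCA and its complement TGATGNAA, which 3.97% of the 32851 windows hold. Capitals mark it in GRCm38.p6 sequence from RefSeq, 30 bases each. The Trib3 stretch is chr2:152344028-152344057 on the minus strand, positions 4 to 33 after the start.
Trib3: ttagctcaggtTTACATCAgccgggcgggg
Asns: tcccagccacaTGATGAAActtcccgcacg
The Asns stretch is chr6:7693214-7693243 on the minus strand, 34 to 5 bases before the start. Akt2 held a match too, in 1 of its 4 windows. Trib3 and Asns did not vary together across the 12 arrays (Pearson r = −0.13, permutation p = 0.692, and Spearman rho = 0.04, permutation p = 0.903). Both genes read below 7.05, the 95th percentile of the negative control probe sets, in every array, with Asns at 4.75 to 5.685. A lack of correlation between genes this dim says little.

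The spread between arrays of a group differed widely among the 10 genes. Over the 18725 genes tested the median residual SD, the SD of arrays around their group mean, was 0.128 on the log2 scale. Irs1 at 0.34 stood at the 95.4th percentile of all genes, Irs2 at 0.32 at the 94.85th, Foxo1 at 0.27 at the 91.8th and Trib1 at 0.21 at the 85.5th. The adaptors, the forkhead factor and Trib1 were thus among the more variable genes of these livers. The steadier ones were Akt2 at 0.061 (5.27th percentile), Pdpk1 at 0.10 (31.5th) and Tsc2 at 0.12 (40.9th). Trib3, Gsk3b and Pik3r1 lay between, at the 55.6th, 62.2nd and 69.3rd percentile. From the lowest to the highest of the 12 arrays Irs1 spanned 2.05-fold, Irs2 1.88-fold and Akt2 1.19-fold.

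**Figure D3:**
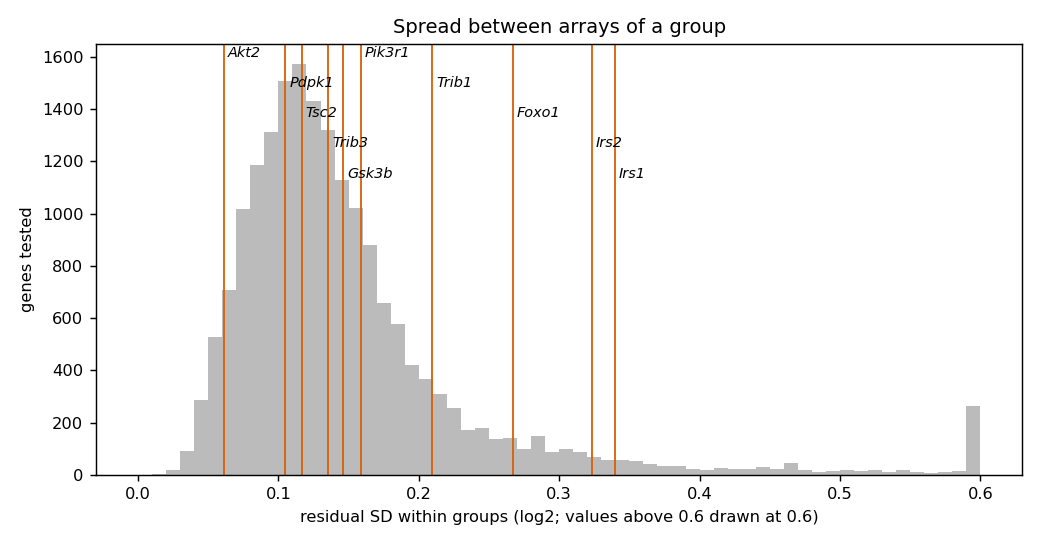
Residual SD within groups on the log2 scale for the 18725 genes tested (grey histogram, counts of genes), with the 10 genes as vertical lines. Akt2 (0.061) lies at the left edge and Irs1 (0.34) and Irs2 (0.32) in the right tail.

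The strongest pair correlation among the 10 genes was a negative one, between Irs2 and Gsk3b, and it did not pass adjustment. Over the 12 arrays Irs2 and Gsk3b correlated with Pearson r = −0.78 (permutation p = 0.0033, adjusted p = 0.149 over 45 pairs) and Spearman rho = −0.61 (permutation p = 0.0397, adjusted p = 0.303). The 3 arrays with the lowest Irs2, F2 replicate 1, control replicate 2 and F3 replicate 4, were also the 3 with the highest Gsk3b (8.32, 8.48 and 8.26). With group means taken off r was −0.79, and with the array set means taken off −0.75. Without the 2 arrays farthest from the Irs2 median it was −0.50 (permutation p = 0.142), so much of the relation rests on F2 replicate 1 and control replicate 2. It was −0.70 within the 7 arrays of the higher set (exact permutation p = 0.0704), and no value was computed for the 5 arrays of the lower set, since correlations were taken over at least 6. Under quantile normalization r was −0.58.

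Of the 45 pairs among the 10 genes, 0 passed adjustment and 7 had an unadjusted permutation p under 0.05 for Pearson r. Irs2 was in 3 of the 7, with Gsk3b, Pdpk1 (r = −0.68) and Pik3r1 (r = −0.60). With the kinase gene Akt2 its r was positive, 0.38 (rho = 0.54, permutation p = 0.231 for r), and 0.72 under quantile normalization (permutation p = 0.00864, adjusted p = 0.2105), but 0.02 with the array set means taken off. The kinase genes Pdpk1 and Gsk3b correlated with r = 0.71 (rho = 0.78), and Pik3r1 and Pdpk1 with r = 0.69 (rho = 0.56). The latter was 0.10 without the 2 arrays farthest from the Pik3r1 median. Pik3r1 and Trib3 correlated with r = −0.73 (rho = −0.54), and with r = −0.36 once the 2 arrays farthest from the Pik3r1 median, control replicate 3 among them, were left out. Foxo1 and Trib1 correlated with r = 0.64 (permutation p = 0.0262, adjusted p = 0.196) and rho = 0.61 (permutation p = 0.0404, adjusted p = 0.303), with 0.49 without the 2 arrays farthest from the Foxo1 median and 0.54 within the higher set. With the array set means taken off, Pdpk1 and Tsc2 fell under an adjusted p of 0.05 (r = 0.82, permutation p = 0.00107, adjusted p = 0.0482, and rho = 0.87, adjusted p = 0.00765). By rank only, so did Pdpk1 and Gsk3b (rho = 0.91, permutation p = 0.00016, adjusted p = 0.0072, and r = 0.67, adjusted p = 0.118). Tsc2 and Gsk3b did so by rank as well (rho = 0.80, adjusted p = 0.0356, and r = 0.71, adjusted p = 0.118). The shuffling for these p-values ran over all 12 arrays and not within the sets, so they are likely too small. Within the higher set r of Pdpk1 with Tsc2 was 0.88 (exact permutation p = 0.00516, adjusted p = 0.232). Over the deposited values r of that pair was 0.36, and under quantile normalization 0.13. Quantile normalization gave r = 0.40 (rho = 0.56) for Pdpk1 with Gsk3b and r = 0.30 (rho = 0.29) for Tsc2 with Gsk3b.

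**Figure D4:**
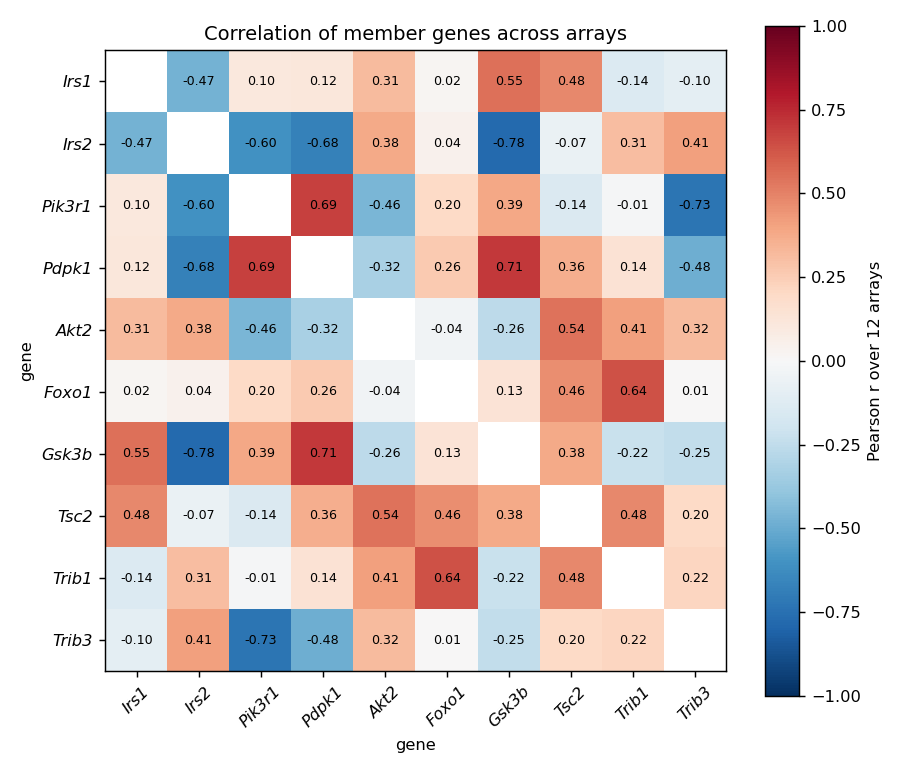
Pearson r over the 12 arrays for each pair of the 10 genes, printed in each cell and coloured from −1 (blue) to 1 (red). The Irs2 row is blue against Gsk3b (−0.78), Pdpk1 (−0.68) and Pik3r1 (−0.60).

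Irs2 and Igfbp1 are both genes that insulin represses through FOXO1. Igfbp1 read 9.32, 6.40, 7.22 and 7.40 in controls, 7.08, 7.73, 7.98 and 7.32 in F2, and 7.82, 7.22, 7.51 and 6.63 in F3. The 3 arrays with the lowest Irs2 were also the 3 with the lowest Igfbp1, 1 in each group. Over the 12 arrays r was 0.64 (permutation p = 0.0221, adjusted p = 0.133 over 6 pairs) and rho 0.60 (permutation p = 0.0424, adjusted p = 0.255). Without the 2 arrays farthest from the Irs2 median r was 0.55 (permutation p = 0.0994) and rho 0.345 (permutation p = 0.329). Control replicate 1, the highest in Igfbp1, was kept there. With group means taken off r was 0.635 and rho 0.51, and with array set means taken off 0.57 and 0.44. Within the higher set r was 0.64 (exact permutation p = 0.115) and rho 0.50. Of the gluconeogenic genes under the same regulation, r with Irs2 was 0.13 with Pck1 (rho = 0.175, permutation p = 0.694 for r) and −0.21 with G6pc (rho = −0.29, permutation p = 0.522 for r). Under quantile normalization it was 0.485 with Pck1 (rho = 0.61, permutation p = 0.0393 for rho, adjusted p = 0.118). Trib3 and Ddit3, which encodes CHOP, correlated with r = 0.34 (rho = 0.41, permutation p = 0.282 for r) and Trib1 and Cebpa, which encodes C/EBP alpha, with r = −0.30 (rho = −0.12, permutation p = 0.348 for r). With group means taken off r of Trib3 with Ddit3 was −0.02, and within the higher set r of Trib1 with Cebpa was 0.57 (exact permutation p = 0.177). None of these 6 pairs passed, and 2 further pairs that had been listed were not analysed here.

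**Figure D5:**
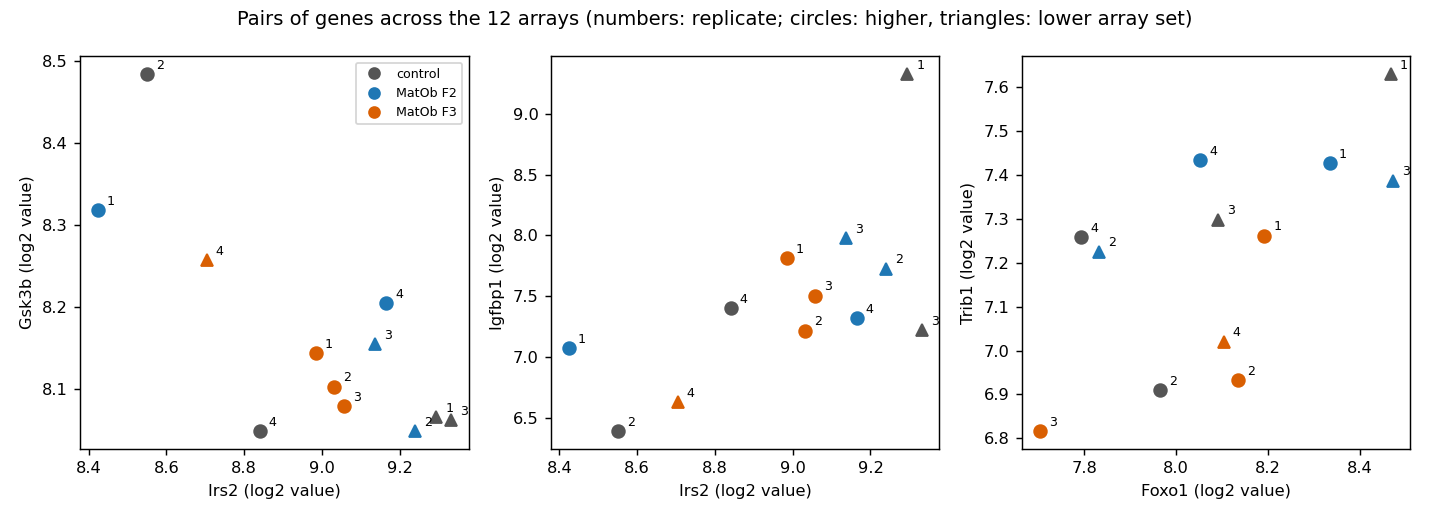
Log2 values of Irs2 against Gsk3b, Irs2 against Igfbp1 and Foxo1 against Trib1 in the 12 arrays, coloured by group and numbered by replicate, with circles for the higher and triangles for the lower small nucleolar RNA set. The low-Irs2 arrays, control 2 (8.55), F2 1 (8.42) and F3 4 (8.70), come from all 3 groups.

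The other genes of the pathway and its targets were read from the same fit. Of 108 such genes, 93 were tested, and 0 passed in any comparison. An unadjusted limma p under 0.05 was reached by 4 in F2 against control (4.30%, beside 0.919% of all genes), 3 in F3 against control (3.23%, beside 2.93%) and 4 between F3 and F2 (4.30%, beside 2.37%). In F2, 47 of the 93 lay below control and 46 above, beside 56.7% of all genes below. In F3, 56 lay below control, with a median of −0.03, beside 54.7% of all genes. Against F2, 52 lay lower in F3, with a median of −0.01, beside 48.6% of all genes.

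In the upper pathway the adaptor genes Sh2b1 and Grb14 were the 2 of 93 genes whose F3 and control arrays lay apart, a share near the 1.63% of all genes. Grb14, an adaptor that inhibits the insulin receptor, read 7.59 to 7.63 in the 4 F3 arrays, above every control (7.39 to 7.54) and every F2 array (7.46 to 7.57). Its limma difference was 0.175 from control (SE 0.053, unadjusted p = 0.0058, adjusted p = 0.9998) and 0.11 from F2 (SE 0.053). Sh2b1, an adaptor that enhances insulin signalling, read 6.72 to 6.83 in F3, below every control (6.85 to 6.96) and every F2 array (6.84 to 6.90). It differed by −0.12 from control (SE 0.051, unadjusted p = 0.0337, adjusted p = 0.9998). Among 11 mTOR branch genes tested, Rps6kb2, an S6 kinase gene, had the lowest limma p in F3 (−0.16, SE 0.073, unadjusted p = 0.0457, adjusted p = 0.9998), and Rictor of the second mTOR complex differed by 0.16 (SE 0.098). The 12 kinase cascade genes tested had a median of −0.01 in F2 and −0.055 in F3, with Map2k2 at −0.12 (SE 0.081) in F3 and Prkcz, an atypical protein kinase C gene, at 0.09 (SE 0.059) in F2. Of 6 forkhead genes tested, Foxa3, a hepatocyte factor, differed most in F3 by p (−0.15, SE 0.12).

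Among the targets of insulin, 9 of 10 lipogenic genes tested lay below control in F2 (median −0.44, with 56.7% of all genes lower) and 5 in F3 (median −0.01), and none passed. F2 replicate 1 lay within the range of the controls for Fasn (10.95, controls 10.30 to 11.44) and Acly (9.72, controls 9.01 to 10.18), and the other 3 F2 arrays lay below every control for both. Fasn, fatty acid synthase, was at −1.14 in F2 (SE 0.42) and Acly at −0.85 (SE 0.38), while the 10 insulin signalling and tribbles genes lay between −0.17 and 0.16 in the same comparison, and neither gene passed the test (limma adjusted p = 0.9999). The insulin-repressed list did not lie to 1 side, with 7 of 10 tested below control in F2 and 6 in F3. In it Pck1, the gluconeogenic carboxykinase, was at 0.28 in F2 (SE 0.12) and Pdk4 at −0.37 (SE 0.26), and Angptl4, an inhibitor of lipoprotein lipase, was at −0.40 in F3 (SE 0.28).

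Trib3 had been left out of the ATF4 and CHOP list. Of the 14 genes of that list tested, 10 lay below control in F3 (median −0.09, with 54.7% of all genes lower). In F2, 5 did (median 0.025, with 56.7% of all genes lower). Part of the list is dim: Atf3 averaged 5.50 in F3, and Ddit3 6.49 in F3 and 6.82 in F2, beside 7.05, the 95th percentile of the negative control probe sets. Ddit3 lay lower in F3 than in F2 in all 4 arrays, though barely, at 6.34 to 6.615 against 6.62 to 7.06. It was 1 of 3 such genes of the 93, beside 2.46% of all genes. The limma difference was −0.33 (SE 0.105, unadjusted p = 0.0085, adjusted p = 0.9999). Against control it was at 0.12 in F2 (SE 0.105) and −0.21 in F3. Among partners of the tribbles proteins, Cop1, the ubiquitin ligase gene, was at 0.12 in F3 (SE 0.091) and Cebpb, a C/EBP gene, at −0.13 (SE 0.13), and Cebpa at 0.095 (SE 0.12). None of these passed.

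For each of the 10 genes the 3 protein-coding genes with the closest pattern were listed by Pearson r over the 12 arrays, from 5110 candidates with a mean of at least 6 and an SD of at least 0.1. These r are descriptions, since they were picked as the highest of many candidates and since arrays share their scale and their small nucleolar RNA level. Irs1 was closest to Crkl, an adaptor gene (r = 0.95), Slc66a2 (0.94) and Nop2 (0.92). Irs2 was closest to AB124611 (0.86), Ccdc3 (0.85) and Pmp22 (0.85). Akt2 was closest to Ehd1 (0.95), Sphk2, a sphingosine kinase gene (0.94), and Sox18, an endothelial transcription factor gene (0.93), and with the array set means taken off these r were 0.89, 0.87 and 0.83. Gsk3b was closest to Cers6, a ceramide synthase gene (r = 0.965), Ago2 (0.96) and Ice1 (0.93), and Foxo1 to Rnf169 (0.935), Slc25a16 (0.93) and Ak4 (0.925). Pik3r1 was closest to Vkorc1l1, Ube2d2a and Lin7c, Pdpk1 to Rab21, Setd2 and Zfp318, and Tsc2 to Alkbh5, Snx3 and Ppm1l (r between 0.92 and 0.96). The tribbles genes, like Irs2, had looser neighbours: Trib1 had Zfp949 (0.90), Gna12 (0.80) and Sardh (0.77), and Trib3 had Cacng7, Ilvbl and Tpm2 (0.84 to 0.83).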

How the data were processed

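The 12 columns analysed were the deposited log2 expression values of 72688 probe sets. The submitters' processing notes name Affymetrix Expression Console as the tool the authors used; version, background correction and normalization are not given there. The deposited values ran from 0.73 to 13.64, and the number of arrays, 4 per group, limits the precision. Probe sets were named from GEO's platform annotation, with 827 symbols updated through RefSeq: 30604 probe sets had 1 symbol, 2146 had several and were not used, and 39938 are unnamed here. A gene took its brightest probe set, and genes with a mean above the median of all probe sets (4.55) were tested.

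One limma model (limma 3.58.1, R 4.3.3) with the 3 groups and no covariate was fitted to all 12 arrays, with Benjamini-Hochberg adjustment over 18725 genes, and was tested on simulated data. Each gene's difference was also set against an exact permutation test over the 70 splits of 8 arrays. Correlation p-values come from 100000 permutations, or from all orders for 7 arrays.

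The 10 genes and the gene lists were chosen with earlier results of these data known. From each list up to 4 genes per comparison could be named, those with the lowest unadjusted p; both genes of each listed correlation pair and the 3 genes closest to each of the 10 were named too. The 3 comparisons share groups, so they are not independent. Alternatives covered the normalization, the filter, probe sets per gene, eBayes settings, arrays in the fit, the replicate number and array set as blocks, each array set alone and each array left out. Counts of lower genes by setting and correlations within the higher array set were added after seeing the data. Promoter sequences are RefSeq's, build GRCm38.p6.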

Additional observations from a re-analysis of the deposited data

Results flagged for a closer look

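In 3 of 30 checks, 10 genes in 3 groups of 4 arrays, 1 array stood apart from the other 3 by a gap above 0.829 of the group's range (Dixon's 95% critical value), which chance gives for about 1 group in 20. Irs2 in F2 replicate 1 was at 8.424, where the nearest other F2 array was at 9.137 (gap over range 0.875). Gsk3b in control replicate 2 was at 8.484, where the nearest other control was at 8.066 (0.961). Pik3r1 in control replicate 3 was at 8.636, where the nearest other control was at 9.051 (0.938).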

How the results depend on the processing

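Of 690 differences of the 10 genes recomputed under alternatives, 627 kept their sign, 63 took the opposite one, and the smallest limma adjusted p was 0.667, so none of the 10 genes passed in any of them. Many of these differences could not change sign. The filters on dim genes, the mean over probe sets and the eBayes settings leave a difference unchanged. So do fitting only the groups compared, the replicate block and leaving out an array of a group not compared. The count of kept signs is therefore no measure of robustness. In F3 against control the signs of Akt2, Pik3r1, Trib1 and Trib3 were kept in every alternative, those included. Over all genes the count called was 0 in every alternative except within the lower array set, where F3 has 1 array: 2 in F3 against control and 3 between F3 and F2. That lone array is assumed to vary like the other groups.

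Replicate numbers did not pair the arrays. With group means taken off, same-numbered arrays of different groups correlated between −0.506 and 0.322 over 12 pairs, 3 above 0.1. Those with different numbers correlated between −0.505 and 0.547 over 36 pairs, 19 above 0.1. With the replicate block 0 genes were called in each comparison, and no call changed.

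Signs turned in these cases, and the cause was not tested. Quantile normalization: Pik3r1, F3 against F2, −0.0565. Median centring: Irs2 0.0042 and Trib3 0.0138, F2 against control, and Pik3r1 −0.0134, F3 against F2. Array set as a block: Irs2 0.0107 and Pdpk1 −0.0138, F3 against control, and Irs2 0.0233 and Pik3r1 −0.0322, F3 against F2. Higher set alone, F2 against control: Irs2 0.0995 and Gsk3b −0.0048; F3 against control: Irs2 0.33, Foxo1 0.13 and Pdpk1 −0.10; F3 against F2: Irs2 0.23 and Pik3r1 −0.0514. Lower set alone, F2 against control: Foxo1 −0.13 and Trib1 −0.16; F3 against control: Irs1 0.41, Tsc2 0.11 and Gsk3b 0.19; F3 against F2: Irs1 0.52, Pdpk1 0.0714, Tsc2 0.0911 and Gsk3b 0.16.

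With each array left out in turn, F2 against control ranged from −0.16 to 0.18 for Irs2, −0.0492 to 0.0015 for Akt2, −0.0063 to 0.22 for Foxo1, −0.0013 to 0.11 for Pdpk1, −0.0194 to 0.0314 for Tsc2, −0.0278 to 0.21 for Trib1, −0.0662 to 0.0961 for Trib3 and −0.0284 to 0.12 for Gsk3b. F3 against control ranged from −0.21 to 0.0498 for Irs2, −0.14 to 0.0834 for Foxo1, −0.0514 to 0.0561 for Pdpk1 and −0.0579 to 0.087 for Gsk3b. F3 against F2 ranged from −0.21 to 0.13 for Irs1, −0.24 to 0.0359 for Irs2, −0.0462 to 0.0737 for Pik3r1 and −0.0803 to 0.0092 for Gsk3b.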
